A study of Homo sapiens with 8 samples.

Results

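Integrins are the cell's main receptors for the extracellular matrix: each is a pair of 1 alpha and 1 beta chain that spans the membrane, binds matrix outside the cell and connects to actin inside it. Laminins, built from 1 alpha, 1 beta and 1 gamma chain, are the large glycoproteins that form the first sheet of the basement membrane, and several integrins bind them. RND3, the gene knocked down in the study, encodes a small GTP-binding protein that loosens actin stress fibres, the structures that integrin adhesions anchor. In glioma, integrins and laminins are known for their part in adhesion to vessel walls and in invasion of the brain.

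The genes described here were the human integrin chains whose symbol is ITGA or ITGB followed by a number (with a letter after it in ITGA2B) and the laminin chains named LAMA, LAMB or LAMC with a number. The rule used symbols only. The genes reported number 31 on 42 probes, out of 19483 named genes and 42405 probes on the array: 20 integrins (12 alpha chains on 15 probes and 8 beta chains on 8 probes) and 11 laminins on 19 probes. Integrin alpha chains named by a letter, such as ITGAV, did not meet the rule and are counted further on with the partners.

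The study profiled U87 cells, an established human glioblastoma line, after transient reverse transfection with small interfering RNA against RND3 (siRND3) or with non-silencing control RNA (siControl). RNA was taken 24 h after transfection from 3 siControl and 3 siRND3 samples and at 48 h from 1 sample of each, and every sample was hybridised to its own 1-colour array. The methods name a pair of RND3 oligos without assigning them to arrays, and whether each replicate was its own transfection is not given, so p-values here measure the spread between these samples only. All arrays lay on 1 slide with the siRND3 arrays in one row and the siControl arrays in the other, so the row on the slide cannot be told apart from the treatment.

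The share of probes detected well above background ran from 68.3% to 70.7% over the arrays. Pearson's r between arrays at 24 h, across probes, was 0.993 to 0.995 among siControl arrays, 0.991 to 0.994 among siRND3 arrays and 0.987 to 0.989 between the groups. Of 6 glioma markers, 4 were well above background on all 8 arrays, S100B was so on some arrays, and the astrocyte filament gene GFAP was so on none. Among lists for other cell types, the endothelial list had all 5 of its genes above background and a mean log2 level of 5.93 to 5.97 on the siControl arrays against 5.42 to 5.76 on the siRND3 arrays at 24 h, and 6.06 against 5.09 at 48 h. At 24 h its genes did not move together: KDR fell by 1.11 (limma adjusted p = 0.0394) and PECAM1 by 0.99 on 1 of 2 tested probes (limma adjusted p = 0.0216), while VWF (-0.06), TEK (0.21) and CDH5 (0.31) did not pass. The mean of the glioma list was also lower, at 9.59 to 9.76 on the siControl and 9.41 to 9.52 on the siRND3 arrays at 24 h, and its genes differed by -0.58 (CD44) to 0.41 (NES, on 1 of 2 probes). The part of these shifts in the results below was not tested. All 6 leukocyte and all 5 fibroblast genes were also well above background on every array, as were 3 of 4 platelet genes (not PPBP) and 2 of 5 epithelial genes (not CDH1, KRT5 or KRT14).

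RND3 itself was checked first. Its log2 intensity at 24 h was 11.88, 11.91 and 11.90 on the siControl arrays and 10.12, 10.18 and 10.42 on the siRND3 arrays. The siRND3 level was 31.7% of the siControl level, a log2 difference of -1.66 (SE 0.10, limma adjusted p = 0.000345, n = 3 per group). At 48 h the arrays gave 11.48 and 9.84, a difference of -1.65, so the targeted gene was lower under its labels at both times.

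Of the 31 integrin and laminin genes, 27 on 35 probes were tested at 24 h, for which a probe had to be detected above background on every array of siControl or of siRND3. The genes left out were ITGA8, ITGB2, ITGB6 and LAMB4, whose probes were well above background on no array. Among the 27, LAMA4 was up-regulated in siRND3 cells, ITGA2, ITGA10 and ITGB3 were down-regulated, and 23 did not pass the test at a limma adjusted p of 0.05. The 1 gene that rose was 3.7% of those tested, against 7.16% of all genes, and the 3 that fell were 11.1%, against 9.26% of all genes. Together the 4 genes made up 14.8%, close to the 16.4% over all 14805 genes. In such bulk RNA, fewer cells that express a gene and less of its RNA per cell cannot be told apart. The median difference per gene, each at its brightest probe, was -0.07 on the log2 scale against 0.04 over all genes.

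The calls among these genes were close to the threshold. Leaving out any of the siControl arrays left 0 of them past it, and leaving out siRND3 replicate 1, 2 or 3 left 2, 1 and 2. Over all genes, those refits called 348 to 778 genes higher and 707 to 1145 lower, against 1060 and 1371 with all arrays. The groups did not overlap for 12 of the 35 probes, 6 of them higher and 6 lower in siRND3 cells, which is 34.3% against 34.4% of all probes.

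**Figure D1:**
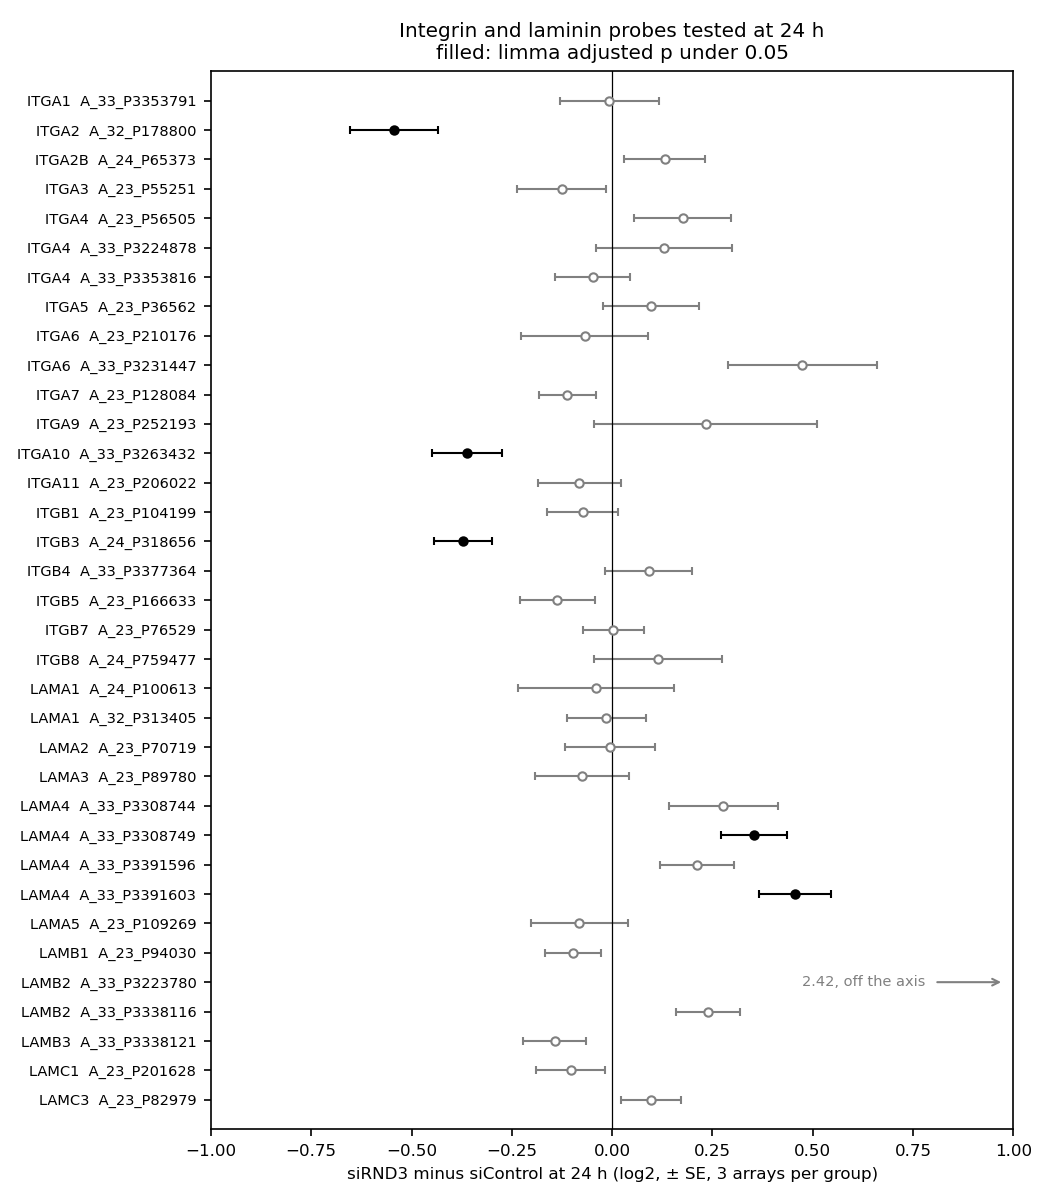
Difference in log2 intensity between siRND3 and siControl cells at 24 h for each tested integrin and laminin probe (points, with the standard error as a bar, 3 arrays per group), filled where the limma adjusted p was under 0.05. The 5 filled points lie between -0.54 and 0.46, and the LAMB2 probe drawn with an arrow has a fitted value of 2.42 that rests on 1 spot.

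The integrin alpha chains are described by the ligand class that each is known for, a grouping added after the values were seen. The collagen-binding chains are ITGA1, ITGA2, ITGA10 and ITGA11, all partners of ITGB1. Of these 4, ITGA2 and ITGA10 fell at 24 h, while ITGA1 and ITGA11 differed by -0.01 and -0.08 and did not pass. Over all genes 9.26% fell, and with a class this small and formed afterwards the count describes these 4 chains and tests nothing.

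ITGA2 forms a receptor for collagen and laminin that is also found on platelets and epithelial cells. Its log2 intensity was 6.71, 6.50 and 6.64 on the siControl arrays and 6.17, 5.88 and 6.16 on the siRND3 arrays at 24 h. Every siRND3 array lay below every siControl array. The siRND3 level was 68.6% of control, a difference of -0.54 (SE 0.11, limma adjusted p = 0.0264). At 48 h the arrays read 7.05 and 5.64, a difference of -1.41, or 2.66-fold lower in siRND3 cells. With normexp on the spot medians the difference was -0.29 at 24 h and -0.78 at 48 h, and in the authors' deposited values -0.36 and -1.01, in both still past the test at 24 h.

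ITGA10 encodes a collagen receptor chain best known from cartilage. At 24 h its values were 8.62, 8.63 and 8.60 in siControl cells and 8.38, 8.27 and 8.12 in siRND3 cells. The siControl arrays lay close together (SD 0.01) and above all siRND3 arrays. The difference was -0.36 (SE 0.09, limma adjusted p = 0.0456), leaving 77.9% of the control level. It did not pass with arrays scaled to the 75th percentile (limma adjusted p = 0.0546), with no filter on dim probes (0.0730) or with all 8 arrays in the fit (0.0598). At 48 h ITGA10 stood at 8.25 in siControl and 6.73 in siRND3 cells, a difference of -1.52 or 2.87-fold.

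The sequence around the transcription start is shown for the 3 genes that passed at 24 h and have an entry in the promoter table, 2 that fell and 1 that rose, to set their composition side by side. Each is the RefSeq window on GRCh38.p14 from 250 bases before to 50 bases after the start, printed along the gene's strand. Capitals mark matches, on either strand, to 4 short motifs: TGANTCA (AP-1), GGG and CC with any 5 bases between (NF-kB), GGAATG (TEAD) and GGGCGG (Sp1). The ITGA2 window is chr5:52989102-52989401 on the plus strand, the ITGA10 window chr1:145910001-145910300 on the minus strand and the LAMA4 window chr6:112254518-112254817 on the minus strand.
ITGA2: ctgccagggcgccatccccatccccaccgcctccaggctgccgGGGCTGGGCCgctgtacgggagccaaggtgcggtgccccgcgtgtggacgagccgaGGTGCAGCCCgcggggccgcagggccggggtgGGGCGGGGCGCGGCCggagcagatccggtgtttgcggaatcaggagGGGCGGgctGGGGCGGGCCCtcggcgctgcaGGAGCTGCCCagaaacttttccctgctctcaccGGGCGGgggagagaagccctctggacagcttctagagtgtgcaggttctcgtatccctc
ITGA10: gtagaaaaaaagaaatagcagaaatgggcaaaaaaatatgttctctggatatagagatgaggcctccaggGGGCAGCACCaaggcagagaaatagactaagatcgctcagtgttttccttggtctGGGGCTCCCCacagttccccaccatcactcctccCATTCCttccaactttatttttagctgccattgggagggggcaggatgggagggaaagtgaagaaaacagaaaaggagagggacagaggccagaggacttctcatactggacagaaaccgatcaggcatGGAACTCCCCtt
LAMA4: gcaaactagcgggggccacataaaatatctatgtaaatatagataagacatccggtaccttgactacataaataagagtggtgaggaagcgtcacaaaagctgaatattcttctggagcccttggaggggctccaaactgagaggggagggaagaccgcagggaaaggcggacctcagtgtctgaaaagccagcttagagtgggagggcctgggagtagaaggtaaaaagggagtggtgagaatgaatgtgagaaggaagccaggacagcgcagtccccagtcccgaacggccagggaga

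The windows differ in composition. ITGA2 has 72.7% G and C with 4 Sp1 and 6 NF-kB matches, some of which overlap each other. ITGA10 has 48.7% G and C with 3 NF-kB matches and 1 TEAD match. LAMA4 has 51.3% G and C, and none of these letters occur in its window. In the table, 29 windows belonged to 23 of the integrin and laminin genes. NF-kB matches occurred in 21 of these windows (72.4%) against 58.7% of all 35116 windows, and Sp1 matches in 18 (62.1%) against 45.0%. TEAD matches occurred in 4 (13.8%) against 14.0% and AP-1 matches in 3 (10.3%) against 7.71%. Some genes had more than 1 window, so the NF-kB windows came from 18 genes and the Sp1 windows from 13. The median G and C was 61.3% in these windows against 58.7% in all windows. A match is a run of letters only and says nothing about binding.

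The laminin-binding alpha chains ITGA3, ITGA6 and ITGA7 did not pass at 24 h on any of their 4 probes. ITGA3, which pairs with ITGB1 to bind laminin, read 13.67, 13.62 and 13.63 in siControl cells and 13.29, 13.66 and 13.59 in siRND3 cells, and the groups overlapped. ITGA7, the laminin receptor chain of muscle, differed by -0.11 (limma adjusted p = 0.356). The probes for ITGA6 disagreed, at -0.07 and 0.47. The second of these was dim, well above background on 7 of 8 arrays, and did not pass (limma adjusted p = 0.156).

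Of the chains that bind the RGD peptide of fibronectin or fibrinogen, ITGA5, the main fibronectin receptor chain, differed by 0.10 (limma adjusted p = 0.649) and ITGA2B, the platelet fibrinogen receptor chain, by 0.13 (limma adjusted p = 0.452). ITGA9, a receptor chain for tenascin, varied widely within the groups, from 7.62 to 8.33 in siControl and from 7.65 to 8.55 in siRND3 cells. ITGA4, the chain of the leukocyte receptor for VCAM1 and fibronectin, differed by -0.05 to 0.18 over its 3 probes at 24 h.

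Among the beta chains, ITGB3 was down-regulated at 24 h and the other 5 tested did not pass. ITGB3 pairs with ITGAV as the vitronectin receptor. Its log2 intensity was 11.67, 11.79 and 11.72 on the siControl arrays and 11.32, 11.34 and 11.40 on the siRND3 arrays, with no overlap. The difference was -0.37 (SE 0.07, limma adjusted p = 0.0243), leaving 77.3% of the control level. At 48 h the arrays read 11.70 and 10.69, a difference of -1.02 or 2.02-fold.

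ITGB1, the partner of most alpha chains, read 10.64, 10.73 and 10.49 in siControl and 10.52, 10.49 and 10.62 in siRND3 cells at 24 h. The groups overlapped, the difference was -0.07 (SE 0.09, limma adjusted p = 0.644), and at 48 h it was 0.01. The probes of ITGB4, ITGB5, ITGB7 and ITGB8 differed by -0.14 to 0.12 at 24 h, and none passed. ITGAV, the usual partner of ITGB3 and ITGB5, differed by -0.11 (limma adjusted p = 0.374) and by -0.38 at 48 h.

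**Figure D2:**
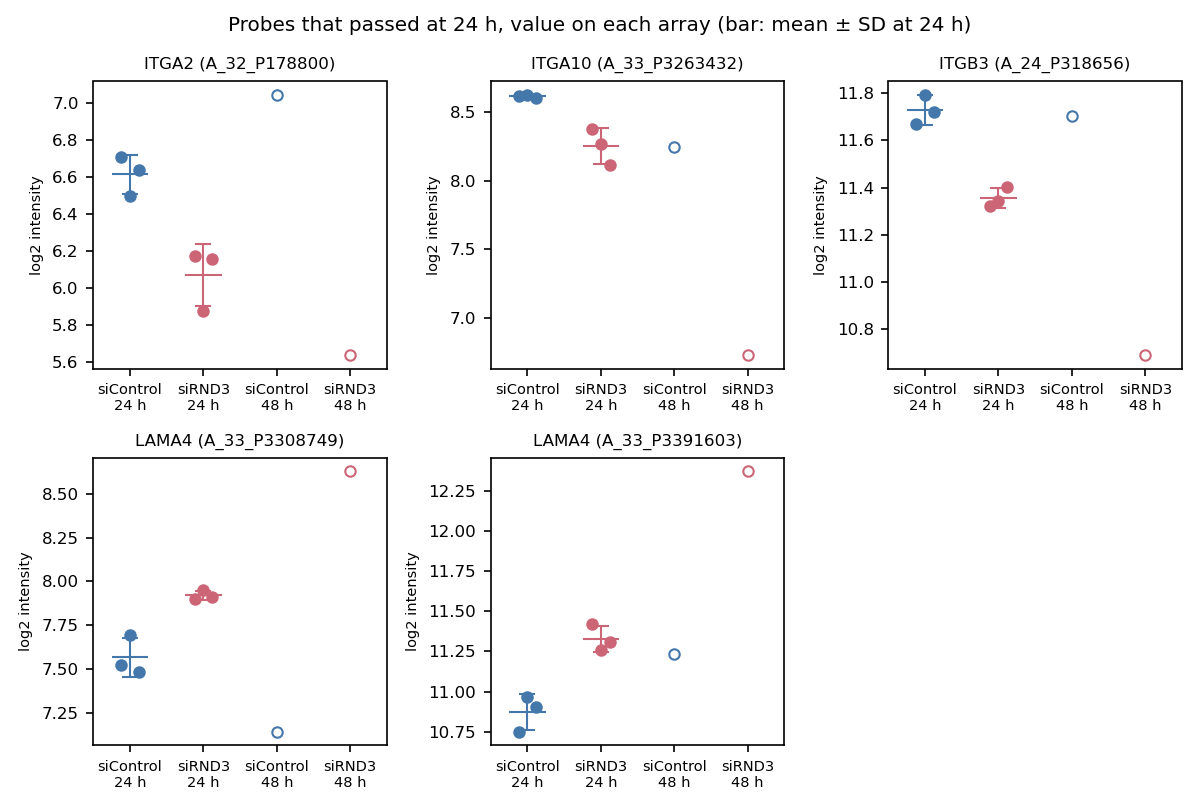
Log2 intensity on each of the 8 arrays for the 5 probes whose knockdown difference passed at 24 h, with filled points and mean ± SD for the 3 arrays per group at 24 h and open points for the single arrays at 48 h (each panel has its own axis, which does not start at 0). The 24 h groups do not overlap in any panel, and the gap is wider at 48 h in every panel.

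LAMA4 was the 1 gene of the set that rose at 24 h. It encodes a laminin alpha chain found in the basement membranes of vessels and muscle. The array carries 4 probes for it, assigned to 3 different transcripts. Probe A_33_P3391603 read 10.75, 10.96 and 10.91 in siControl cells and 11.42, 11.26 and 11.31 in siRND3 cells, a difference of 0.46 (SE 0.09, limma adjusted p = 0.0244). Probe A_33_P3308749 read 7.52, 7.70 and 7.48 against 7.90, 7.95 and 7.91, a difference of 0.35 (SE 0.08, limma adjusted p = 0.0414). On both probes every siRND3 array lay above every siControl array.

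The other LAMA4 probes differed in the same direction without passing. Probe A_33_P3308744 had a difference of 0.28 (SE 0.13, limma adjusted p = 0.237), and its groups overlapped. Probe A_33_P3391596 had a difference of 0.21 (SE 0.09, limma adjusted p = 0.194), and its groups did not overlap. At 48 h the differences on A_33_P3308744, A_33_P3308749 and A_33_P3391603 were 1.64, 1.49 and 1.14, or 3.12-, 2.81- and 2.21-fold, while A_33_P3391596 gave 0.23. Thus 3 of the 4 probes passed 2-fold at 48 h. The siControl level at 48 h differed from that at 24 h by -0.67, -0.43, 0.36 and -0.02 in the same order of probes, so on A_33_P3308744 and A_33_P3308749 the siControl array was itself lower at 48 h.

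LAMA3 and LAMB3, chains of an epithelial laminin, did not pass: LAMA3 differed by -0.07 (limma adjusted p = 0.729) and LAMB3 by -0.14 (limma adjusted p = 0.291). LAMA1, LAMA2 and LAMA5, alpha chains of the embryonic, muscle and vascular or epithelial laminins, differed by -0.08 to -0.01 over 4 probes. LAMB1 and LAMC1, the beta and gamma chains that most laminins share, differed by -0.10 each. LAMC3 differed by 0.10 on the 1 of its 3 probes that was tested.

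LAMB2, the beta chain of the laminins at synapses and in the kidney filter, had a stray spot. Its probe A_33_P3223780 read 17.22 on siRND3 replicate 1 at 24 h and 10.41 to 10.89 on the other 7 arrays, 80.4-fold above the highest of them. The scanner software had not marked the spot, but it had marked 3 of the 4 nearest spots in its column as non-uniform on that array and none of them on the others. With the spot, the fitted difference was 2.42 (SE 1.69, limma adjusted p = 0.404). Without it, a choice made after seeing the value, the difference was 0.26 (SE 0.08, limma adjusted p = 0.112). The second probe, A_33_P3338116, read 11.28, 11.28 and 11.32 in siControl and 11.42, 11.64 and 11.54 in siRND3 cells, a difference of 0.24 (SE 0.08, limma adjusted p = 0.112) with no overlap. Neither probe passed. At 48 h they differed by 0.49 and 0.47.

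**Figure D3:**
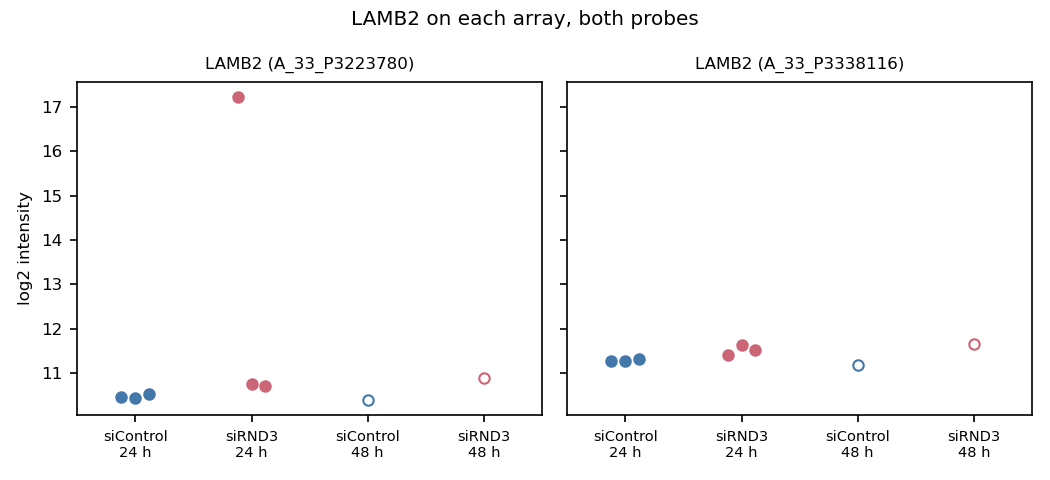
Log2 intensity of both LAMB2 probes on each of the 8 arrays, with filled points for 24 h and open points for 48 h. One siRND3 spot of the left-hand probe lies at 17.22, while the other 7 points of that probe lie between 10.41 and 10.89.

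At 48 h, with 1 array per group and no replicate check, differences of at least 1 on the log2 scale were counted. ITGA2, ITGA10 and ITGB3 were past this size below control, and ITGA4 and LAMA4 above it, while ITGB3 was just short of it under the 3 other scalings (-0.98 to -0.96). The 3 lower genes made up 11.1% of the 27, against 8.04% of all genes, and the 2 higher genes 7.41%, against 5.36%. For ITGA4, 1 of 3 probes reached the size (5.08 in siControl and 6.10 in siRND3 cells, a difference of 1.01), and the others gave 0.64 and 0.51. All 3 ITGA4 differences were smaller with normexp, at 0.37, 0.30 and 0.21. The ITGA4 probe that reached the size was also short of it with the 75th percentile (0.95) and in the authors' values (0.52). Short of the size were ITGA11, a fibroblast collagen receptor chain, at -0.85 (10.45 against 9.60, 1.80-fold) and LAMA5 at -0.60 (10.13 against 9.52, 1.52-fold). ITGA1 differed by -0.36, or -0.23 with normexp.

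Whether the knockdown difference itself changed between the times was tested over all 8 arrays, with the single 48 h arrays assumed to vary like those at 24 h. ITGA10 had a more negative difference at 48 h by -1.16 (limma adjusted p = 0.0326). LAMA4 had a more positive one by 1.14, on probe A_33_P3308749 alone of its 4 (limma adjusted p = 0.0308). The other 25 genes did not pass. That is 1 of 27 genes (3.7%) each way, against 2.56% of all genes more negative and 1.68% more positive. The next nearest were LAMA4 on probe A_33_P3308744 (1.36, limma adjusted p = 0.0563), ITGB3 (-0.64, limma adjusted p = 0.0773) and ITGA2 (-0.87, limma adjusted p = 0.0990). On LAMA4 probes A_33_P3391603 and A_33_P3391596 the change was 0.68 and 0.02 (limma adjusted p = 0.106 and 0.974). Leaving out 1 of the arrays at 24 h ended the LAMA4 call in all 6 refits and the ITGA10 call in 5, all but that without siRND3 replicate 3.

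**Figure D4:**
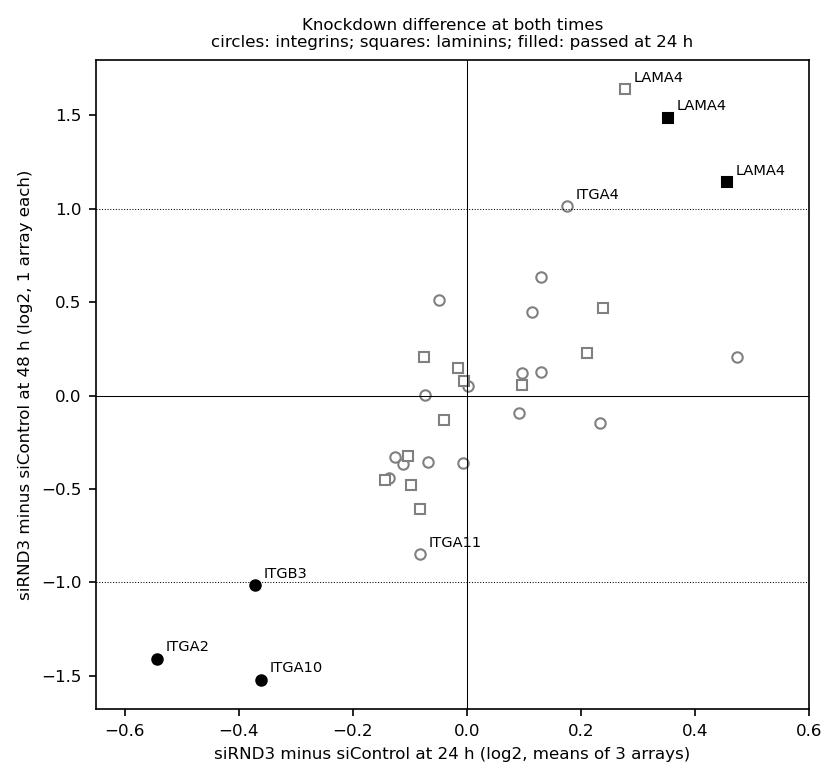
Knockdown difference in log2 intensity at 24 h (horizontal, means of 3 arrays) and at 48 h (vertical, 1 array each) for the integrin (circles) and laminin (squares) probes tested, without the LAMB2 probe with the stray spot; filled symbols passed at 24 h and dotted lines mark 2-fold. ITGA2, ITGA10 and ITGB3 lie past -1 at 48 h, and 3 LAMA4 probes and 1 ITGA4 probe past 1.

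Time in culture was read from siControl cells at 48 h against 24 h in the same model. The 48 h side was 1 array, so any deviation of that array enters all probes together. With limma, 0 of the 27 genes passed, against 1.19% of all genes higher and 3.99% lower at 48 h, while 13 of the 35 probes had an unadjusted p under 0.05, or 37.1% against 21.7% of all probes. The lowest adjusted p belonged to LAMC1, which read 10.89, 10.80 and 10.79 at 24 h and 11.42 at 48 h, a difference of 0.59 (limma adjusted p = 0.0548).

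The genes that work with integrins and laminins were counted from lists of known partners. These lists were chosen with earlier results of these data known, so their shares describe the listed genes and test nothing. The list of integrin adhesion adaptors also holds kinases and other regulators, not only proteins that tie integrin tails to actin. Of this list 29 were tested, of which 8 fell and 0 rose at 24 h. That is 27.6% lower against 9.26% of all genes, and the list's median difference was -0.12 against 0.04. NEDD9 was not tested. With other scalings or pooled probes, up to 3 adaptors (KANK2, TNS2 and TNS3) passed as higher. The 8 were FERMT2, FERMT3, VCL, LIMS1, LIMS2, PARVA, BCAR1 and DAB2.

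FERMT2, or kindlin-2, which activates integrins by binding beta tails, read 10.24, 10.30 and 10.31 in siControl and 9.06, 8.85 and 9.11 in siRND3 cells, a difference of -1.28 (SE 0.09, limma adjusted p = 0.000619). BCAR1, or p130Cas, a docking protein of focal adhesions, read 13.38, 13.28 and 13.30 against 12.29, 11.98 and 12.09, a difference of -1.20 (SE 0.10, limma adjusted p = 0.00098). On these probes every siRND3 array lay below every siControl array. Each gene had a second probe with a smaller difference, -0.59 for FERMT2 (limma adjusted p = 0.0490) and -0.34 with overlapping groups for BCAR1 (limma adjusted p = 0.169). With probes averaged the differences were -0.93 and -0.77. VCL, or vinculin, which links talin to actin, fell by 1.18 (SE 0.11, limma adjusted p = 0.00138), and PARVA, the ILK-binding parvin, by 1.07 (SE 0.07, limma adjusted p = 0.000608). At 48 h the differences of FERMT2, BCAR1, VCL and PARVA were -1.95, -1.40, -1.88 and -1.67 on the probes first given, and -0.65 and 0.17 on the second probes of FERMT2 and BCAR1. The calls of these 4 genes held in every refit that left out an array.

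The talins TLN1 and TLN2, the kinases PTK2, ILK and SRC and the crosslinkers ACTN4 and FLNA were among the 21 adaptors that did not pass. Past 2-fold at 48 h were 8 of the 29 adaptors below control (27.6% against 8.04% of all genes) and 1 above it, TNS2. These were not the same 8 that fell at 24 h. ACTN1 was among them at -1.11, after -0.33 at 24 h (limma adjusted p = 0.0709), while LIMS1 at -0.96 was not.

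**Figure D5:**
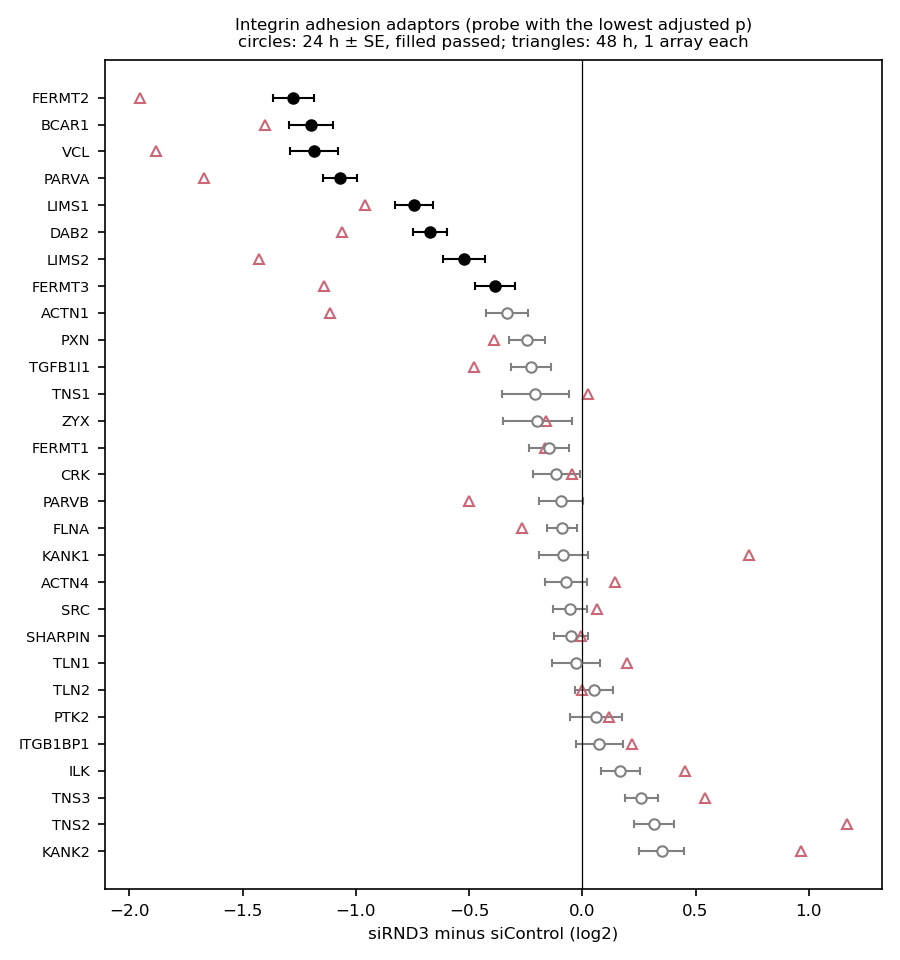
Knockdown difference in log2 intensity for the 29 tested integrin adhesion adaptors, each at its probe with the lowest adjusted p: circles give 24 h with the standard error (3 arrays per group, filled where the limma adjusted p was under 0.05) and triangles 48 h (1 array each). The 8 filled circles all lie below 0, from -1.28 for FERMT2 to -0.39 for FERMT3.

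Among 14 tested basement membrane partners of laminin, COL4A2 alone fell at 24 h, or 7.14% against 9.26% of all genes. COL4A2, a chain of the collagen network that laminin sheets attach to, read 11.51, 11.55 and 11.57 in siControl and 10.40, 10.54 and 10.38 in siRND3 cells, a difference of -1.10 (SE 0.08, limma adjusted p = 0.000608), and 12.13 against 8.50 at 48 h. Its gene neighbour and partner chain COL4A1 differed by 0.26 (limma adjusted p = 0.157). The COL4A1 probe was far dimmer than that of COL4A2, at 5.74, 5.57 and 5.48 on the siControl arrays at 24 h. Whether it reports COL4A1 as well as the other probe reports COL4A2 was not tested. The difference became more negative at 48 h for COL4A2 (-2.53), COL15A1 (-1.45) and NID2 (-1.12), with limma adjusted p values of 0.0075, 0.0219 and 0.0245. That is 3 of 14 genes, against 2.56% of all genes. COL4A3 and NTN1 were among those not tested.

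Of 14 tested matrix ligands of integrins other than these, CCN2 fell, by 0.78 (SE 0.11, limma adjusted p = 0.00775), which is 7.14% lower against 9.26% of all genes. CCN2 is a secreted matricellular protein that binds ITGAV and ITGB3. In the same list the difference of THBS2, a thrombospondin, became more positive at 48 h by 0.75 on 1 of 2 probes (limma adjusted p = 0.0428), or 1 of 14 genes against 1.68% of all genes. Of 14 tested partners at the membrane, the heparan sulphate proteoglycan SDC4, which acts beside integrins in fibronectin adhesion, rose by 1.16 (SE 0.10, limma adjusted p = 0.00108), and 13 did not pass, so that 7.14% were higher against 7.16% of all genes. The 5 letter-named integrin alpha chains tested had 0 past the test, against 16.4% of all genes, with a median difference of -0.11. The medians of the matrix ligands and membrane partners were -0.06 and -0.13. ITGAL, NPNT, IBSP, COL3A1, VCAM1 and BCAM were not tested.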

How the data were processed

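Total RNA of U87 cells was labelled with Cy3 by the authors and hybridised to 1-colour Agilent human arrays, 1 array per sample. The deposited spot intensities came from Agilent Feature Extraction 10.7.3.1, background-corrected within each array; the authors' deposited log2 value table, quantile-normalised, was used as an alternative. Here log2 intensity was quantile-normalised over the 58717 non-control spots of the 8 arrays, outlier-marked spots were left out, and spots of a probe were averaged. A probe was tested if detected well above background (in at least 50% of its spots) on every 24 h array of siControl or of siRND3, which left 28759 probes. Genes were named by RefSeq accession, and 60% of probes had a symbol. All 31 member symbols were in the RefSeq gene table.

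Groups were compared with limma 3.58.1 in R 4.3.3, adjusted by Benjamini-Hochberg over all tested probes, threshold 0.05. A gene was called when at least 1 probe passed and none passed the other way. Members called at 24 h were given in full, the rest by range, and up to 4 called genes of each partner list by value. The smallest exact permutation p of 3 against 3 arrays is 0.1, so no single-gene permutation test was used. SAM, the study's method, over 20 assignments, other scalings, filters, a replicate block and leaving out each array were tried. Array number limits the precision. The fits were tested on simulated data. The members and lists were chosen with earlier results of these data known. Some items that met the rules for members or lists are not reported here and, among the members, were left out of every count.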

Additional observations from a re-analysis of the deposited data

Results flagged for a closer look

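The knockdown difference of ITGA10 (probe A_33_P3263432) was more negative at 48 h than at 24 h by -1.16 on the log2 scale, and that of LAMA4 (probe A_33_P3308749) was more positive by 1.14. Both were singled out because the difference between the times itself passed the limma test at adjusted p values of 0.0326 and 0.0308. On these probes the siControl level also moved, by -0.37 and -0.43 from 24 h to 48 h, and neither change passed (limma adjusted p = 0.157 and 0.106). On LAMA4 probes A_33_P3308744, A_33_P3391603 and A_33_P3391596 it moved by -0.67, 0.36 and -0.02, so the direction differed between LAMA4 probes.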

How the results depend on the processing

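RND3 stayed past the threshold in every alternative, at -1.74 to -1.60. No result that passed its test and was followed through the alternatives changed direction. The changes between the times of COL4A2, COL15A1, NID2 and THBS2 and the calls of cell type markers were not followed in this way. Among differences near 0 at 24 h, those of ITGA1 and ITGA6 (probe A_23_P210176) changed sign with the 75th percentile (0.06 and 0.02), and those of LAMA1 (probe A_24_P100613) and LAMA2 under all 3 other scalings (0.00 to 0.01 and 0.02 to 0.04). The number of members past the test at 24 h (4) was 1 with a replicate block (ITGA2) and 0 to 2 when 1 array was left out. The number higher (1) was 2 with normexp, 2 with all 8 arrays in the fit (LAMB2 added in both), 2 with no filter on dim probes (LAMB4 added), 0 with the block and 0 to 1 with 1 array left out. The number lower (3) was 2 with the 75th percentile and 2 with all 8 arrays (ITGA10 lost in both), 1 with no filter (ITGB3), 1 with the block and 0 to 2 with 1 array left out. For the change between the times (2) it was 4 with normexp (ITGA11 and ITGB3 added), 0 with the block and 0 to 1 with 1 array left out. For time in siControl cells (0) it was 2 with normexp (ITGA7, LAMC1), 1 with the authors' values (LAMC1), 1 with the filter on all 6 arrays at 24 h (LAMC1) and 2 with probes averaged (LAMB3, LAMC1). Past 2-fold at 48 h (5) were 3 with arrays scaled to the 75th percentile, 2 with normexp (ITGA10, LAMA4) and 3 with the authors' values. The cause was not tested. Over all genes the block left 392 higher and 824 lower. Whether the replicate numbers mark pairs is not given. Deviations of same-numbered arrays correlated at 0.00, -0.01 and 0.13, and those of differently numbered arrays at -0.13 to 0.11, which does not decide it.

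The adaptor list gave 6 to 12 calls under every alternative, with KANK2, TNS2 or TNS3 higher in 6 of them. The letter-named alpha chains (0) had 1 with no filter (ITGAL). Basement membrane partners (1) had 2 with probes averaged and 2 with all 8 arrays. Matrix ligands (1) had 4 with normexp, 3 with the authors' values, 2 with the filter on all 6 arrays, 4 with probes averaged, 2 with array weights, 2 with SAM, 3 with all 8 arrays and 1 to 2 with 1 array left out. Membrane partners (1) had 3 with normexp and 2 with the authors' values, the filter on all 6 arrays, probes averaged, array weights, SAM and all 8 arrays. Normexp was run on spot medians.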
